A study of Mus musculus with 2 samples.

Results

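Noncycling effector CD8 T cells of mouse pancreatic tumors are described here, 352 cells among the 9773 cells of 2 single-cell libraries. They were chosen by transcripts in each cell: Cd8a, at least 1 of the CD3 genes Cd3d, Cd3e and Cd3g, at least 1 of the effector genes Nkg7, Cxcr6, Lag3 and Pdcd1, and fewer than 2 of the cell cycle genes Top2a, Mki67, Birc5 and Cdk1. The first library came from Ahr cKO mice, labelled C57/BL6 Ahr fl/fl Lys M, in which LysM-Cre acts on floxed Ahr alleles. The second came from C57/BL6 Ahr fl/fl mice, which carry the floxed alleles without the Cre. Each library held the live, DAPI-sorted cells of whole pancreatic tumors pooled from 3 mice, taken 14 days after MT4 cells were implanted there; MT4 is a KPC tumor organoid line (KPC mice develop pancreatic adenocarcinoma). LysM-Cre cuts in myeloid cells (macrophages, monocytes, neutrophils), so the CD8 T cells of both libraries are not its main target. The comparison asks how these T cells differ between tumors whose myeloid cells lack Ahr and tumors whose myeloid cells keep it.

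CD8 T cells recognize peptides on MHC class I through the alpha-beta T cell receptor and its CD3 signaling chains. Once activated, they kill target cells with granzymes and perforin and release interferon gamma and chemokines. In tumors, cells exposed to antigen for long carry inhibitory receptors such as PD-1 and LAG-3, which dampen their activity, and a smaller pool keeps the transcription factor TCF-1 and feeds the others.

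The deposited table held 2000 genes as scaled scores. In the fl/fl library each gene's lowest value was shared by a median of 96.0% of cells and was taken as its zero. All values below are the distance above that zero, in scaled units, and 1 unit is near a gene's SD over all cells (a median over genes of 0.883 and a 5th to 95th percentile of 0.444 to 0.999). A value over 1 counted as positive in the choice of cells. Per gene, a median of 14.87% of cKO cells lay below the fl/fl zero. A correction between the libraries was inferred from this and is stated in no source. The cKO cells were therefore chosen on values that may have been moved. With 1 library per genotype there is no replicate and no test, and the spread between tumors is unknown. Intervals on shares are exact (Clopper-Pearson, 95%) and cover counting error only. The number of molecules per cell is unknown, and the median fl/fl cell showed 108 genes above zero. A total of 656 cell barcodes occurred in both libraries. Of the effector CD8 T cells, 3 cKO and 3 fl/fl cells shared theirs. Leaving out all such barcodes reversed none of the named differences. It raised the share of effector CD8 T cells among all cells in both libraries, within the counting intervals given below.

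Genes that the choice did not use fit the label. In the fl/fl library, Cd8b1, which encodes the other chain of the CD8 coreceptor, was above zero in 79.2% of the 178 cells (72.5 to 84.9%). At least 1 of the receptor chain genes Trac, Trbc1 and Trbc2 was above zero in 172 cells (96.6%), and Trac alone in 77.0%. Cd4 and Foxp3, which mark helper and regulatory T cells, were above zero in 2 cells each, and Ncr1, which marks natural killer (NK) cells, in 1. NK-type cells, chosen by NK genes and with no CD3 gene over 1, had Trac above zero in 4.67% and Trbc2 in 33.6%. Trbc1 was above zero in 57.9% of NK-type cells and 60.7% of the effector CD8 T cells, so it does not set these apart. The 37 effector CD8 T cells without Cd8b1 were shallower, with a median of 75.0 genes above zero against 155.0 in those with it. Against all other fl/fl cells, the 10 leading genes outside the rule were Cd8b1, Lat, Trbc1, Trbc2, Trac, Sh2d2a, Ccl5, Cd160, Ctsw and Klrd1. Cd8b1 had a mean of 2.52 in these cells and 0.157 in all others, and Ccl5 had 1.73 and 0.212. Because genes of the same cells chose them, these differences are descriptions.

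Among the genes of the rule, Nkg7, a protein of cytotoxic granules, was the commonest and was over 1 in 92.5% of cKO and 89.9% of fl/fl cells. Cxcr6, a chemokine receptor of tissue T cells, was over 1 in 65.5% of cKO and 53.4% of fl/fl cells. Lag3 was over 1 in 45.4% of cKO and 40.4% of fl/fl cells, and Pdcd1, which encodes PD-1, in 44.3% of cKO and 42.7% of fl/fl cells. The lowest Cd8a values inside the threshold of 1 were 1.01 in cKO and 1.00 in fl/fl cells, and the highest outside were 0.992 in cKO and 0.985 in fl/fl cells. Cells within 0.25 above the Cd8a threshold numbered 12 in each library, and the median Cd8a inside was 3.65 in cKO and 3.20 in fl/fl cells. On the GRCm38 build with the GENCODE M21 annotation, Cd8a spans chr6:71373427-71379173, with Cd8b1 beside it at chr6:71322788-71337494. Nkg7 spans chr7:43437073-43438249, Cxcr6 chr9:123806475-123811760, Lag3 chr6:124904361-124911705 and Pdcd1 chr1:94038305-94052553.

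On the deposited UMAP, a map that places like cells together, most of these cells lay in a compact group beside other T cells. Among the 15 nearest cells of each, a mean of 94.6% were CD3-positive around cKO cells and 90.5% around fl/fl cells. For 3 cKO and 10 fl/fl cells most of the neighbours were not CD3-positive. Cycling effector CD8 T cells made up a mean of 1.53% of the neighbours of cKO cells, against 4.83% for fl/fl cells.

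**Figure D1:**
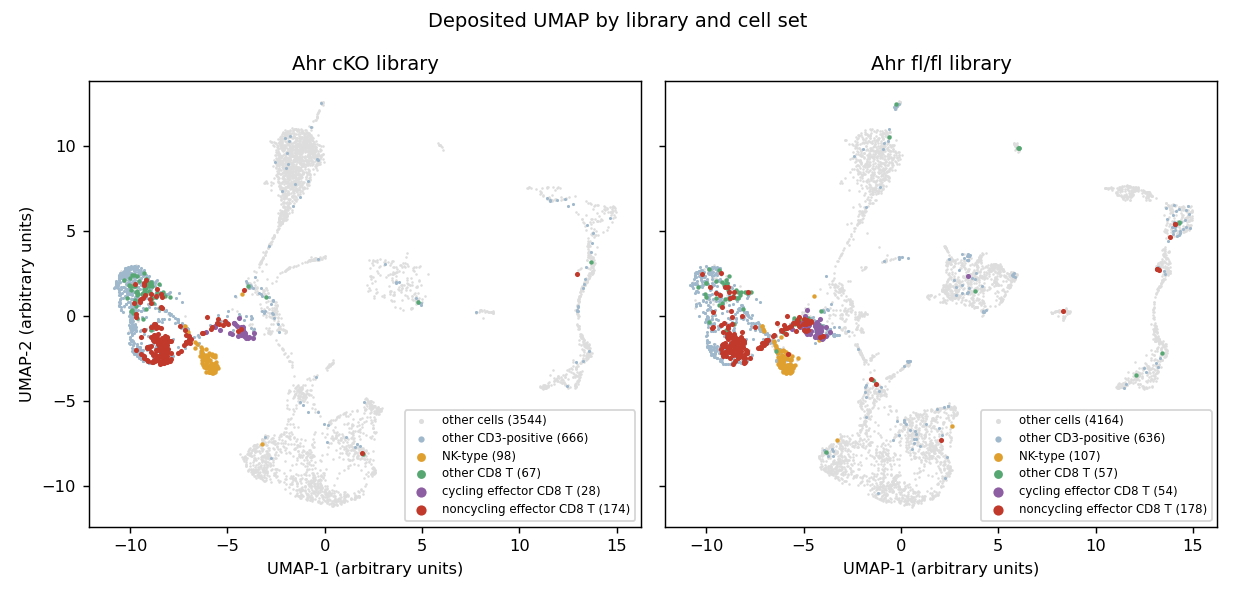
Deposited UMAP (both axes in arbitrary units), with the cKO library in the left panel and the fl/fl library in the right panel; each point is 1 cell, colored by cell set with the number of cells in the legend. The 174 cKO and 178 fl/fl noncycling effector CD8 T cells sit mainly in the same area on the left of the map, between other CD3-positive cells and the NK-type cells, with 3 cKO and 10 fl/fl cells whose neighbours are mostly not CD3-positive.

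Transcripts of other cell types were present at low levels. Of 8 neutrophil genes measured, none was at 0 in all fl/fl cells, and S100a9 was above zero in 34.8%. The sum of the 8 neutrophil genes had a median of -0.004 in cKO cells (-0.101 to 12.2) and 0.005 in fl/fl cells (0 to 15.2), against 15.9 in fl/fl neutrophils. Of 8 macrophage and monocyte genes, 3 were at 0 in all fl/fl cells and Lyz2 was the commonest at 14.6%. Their sum had a median of -0.016 in cKO cells (-0.151 to 3.00) and 0 in fl/fl cells (0 to 7.31), against 7.73 in fl/fl macrophages and monocytes. The hemoglobin gene Hbb-bs was above zero in 46.6%. At least 2 genes of another lineage were over 1 in 4 cKO and 17 fl/fl cells. No doublet caller was run, because the table holds no counts, and these cells were left out in an alternative.

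Noncycling effector CD8 T cells were 174 of 4577 cKO cells (3.80%, 3.27 to 4.40%) and 178 of 5196 fl/fl cells (3.43%, 2.95 to 3.96%). As a share of CD3-positive cells they were 18.6% in the cKO library (16.2 to 21.3%) and 19.2% in the fl/fl library (16.7 to 21.9%). Among all CD8 T cells they were 63.7% in the cKO library (57.7 to 69.4%) and 60.1% in the fl/fl library (54.3 to 65.8%). These intervals overlapped for all 3 denominators. With the choice of cKO cells made on subtracted values instead, they were 74 cells and 1.62% of the cKO library. The fl/fl cells stayed on deposited values, and the subtraction takes off the level of neighbours that hold the same genes. This share is therefore not set against the fl/fl share. The cycling counterparts were 28 cells and 10.3% of CD8 T cells in the cKO library (6.92 to 14.5%), and 54 cells and 18.2% in the fl/fl library (14.0 to 23.1%). Noncycling CD8 T cells with none of the 4 effector genes over 1 were 24.5% in the cKO library (19.6 to 30.1%) and 19.3% in the fl/fl library (14.9 to 24.2%). Whether these shares vary as much between tumors of 1 genotype was not tested.

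The program of the cells is given next for the fl/fl library, where a zero can be read. Shares above zero depend on depth. The effector CD8 T cells had a median of 136.5 genes above zero, the 57 other CD8 T cells 109.0, the 54 cycling effector cells 339.0, the 19 Foxp3 T cells 137.0 and the 107 NK-type cells 112.0. Cells that should lack T cell genes served as background: 556 fl/fl cells with Krt18, a tumor epithelial keratin, at a median of 179.5 genes above zero, and 412 B-lineage cells at 74.0. Without counts, cells could not be thinned to 1 depth.

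Of the cytotoxic genes, Ctsw, a cathepsin of killer cells, was above zero in 69.7% of the effector CD8 T cells, against 43.9% of other CD8 T cells and 1.62% of Krt18 cells. Gzmb, which encodes the main apoptosis-inducing granzyme, was above zero in 50% of cells, against 15.8% of other CD8 T cells and 0.360% of Krt18 cells. Prf1, the pore-forming perforin, was above zero in 36.0%, against 14.0% of other CD8 T cells and 1.08% of Krt18 cells. These genes were not particular to the effector CD8 T cells. Ctsw was above zero in 69.2% of NK-type and 85.2% of cycling effector cells. Prf1 was above zero in 58.9% of NK-type and 63.0% of cycling effector cells, and Gzmb in 63.2% of Foxp3 T cells. Granzymes differed one by one between the effector CD8 T cells and NK-type cells. Gzmb was above zero in 50% of the effector CD8 T cells and 51.4% of NK-type cells. Gzmk was above zero in 23.6% of the effector CD8 T cells and 2.80% of NK-type cells, while Gzma was above zero in 14.0% of the effector CD8 T cells and 80.4% of NK-type cells. The NK-type cells were chosen by NK receptor genes and not by granzymes. Gzmk and Gzma lie near each other, at chr13:113171608-113225908 and chr13:113093825-113100981.

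Among secreted factors, Ccl5, a chemokine of activated T and NK cells, was above zero in 83.1%, against 35.1% of other CD8 T cells and 11.3% of Krt18 cells. It was above zero in 91.6% of NK-type and 90.7% of cycling effector cells. Ccl4 was above zero in 60.1% and Ccl3 in 45.5%, against 10.5% and 8.77% of other CD8 T cells. The genes of these chemokines lie close together (chr11:83647844-83649355 for Ccl3 and chr11:83662584-83664683 for Ccl4). Ifng, which encodes interferon gamma, was above zero in 64 cells (36.0%, 28.9 to 43.5%), against 1.75% of other CD8 T cells and 16.8% of NK-type cells. Xcl1, which attracts cross-presenting dendritic cells, was above zero in 38.8%, and Ccl1, a ligand of CCR8, in 16.3%. Tnf was above zero in 5.06%, and Il21 and Cd40lg in 0 of 178 cells (up to 2.05% within the interval).

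Inhibitory receptors outside the rule followed. Cd160, a receptor of HVEM, was above zero in 43.3% of the effector CD8 T cells, against 5.26% of other CD8 T cells and 21.5% of NK-type cells. Klrc1, which encodes the inhibitory NKG2A chain, was above zero in 27.0% and its partner Klrd1, which encodes CD94, in 66.9%. Klrc1 and Klrc2 are close copies, so their reads can be confused. Ctla4 was above zero in 15.2%, against 36.8% of Foxp3 T cells. Costimulatory receptors were led by Cd226 at 48.3%, Tnfrsf18 (GITR) at 33.7%, Tnfrsf9 (4-1BB) at 31.5% and Cd28 at 30.3%. Tnfrsf9, which is induced by receptor signaling, was above zero in 3.51% of other CD8 T cells, and Cd28 in 17.5%. Icos was above zero in 22.5% and Tnfrsf4 (OX40) in 13.5%, against 63.2% and 89.5% of Foxp3 T cells.

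Of 16 transcription factor genes measured, Id2, which favors effector cells, was the commonest at 62.4%, against 33.3% of other CD8 T cells and 45.1% of Krt18 cells. It was above zero in 69.2% of NK-type and 87.0% of cycling effector cells. Tox, a factor of chronically stimulated T cells, was above zero in 30.3%, against 10.5% of other CD8 T cells. Nr4a2, induced by receptor signaling, was above zero in 23.0%, against 5.26% of other CD8 T cells. Eomes was above zero in 7.87%, against 37.4% of NK-type cells, whose choice included it. Tcf7, which encodes TCF-1, was above zero in 18 cells (10.1%, 6.10 to 15.5%), against 42.1% of other CD8 T cells. Lef1, its relative, was above zero in 16.9%, against 40.4%. Dapl1, a gene of naive and stem-like CD8 T cells, was above zero in 3.93%, against 36.8%, and the lymph node homing receptor Ccr7 in 3.93%, against 26.3%. Il7r, the receptor for interleukin 7, was above zero in 15.2%, against 28.1% of other CD8 T cells. The other CD8 T cells were defined by lacking the effector genes over 1, and the part of depth in these shares was not tested.

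Tissue and cytokine receptors were mixed. Itga1, the CD49a integrin, was above zero in 20.2% of the effector CD8 T cells, and Itgae, the CD103 integrin, in 16.3%, against 1.75% and 7.02% of other CD8 T cells. Of Krt18 cells, 24.5% had Itga1 above zero and 0.719% had Itgae. Cxcr3, a receptor for interferon-induced chemokines, was above zero in 20.8%, and Cx3cr1, a receptor of circulating effector cells, in 18.5%. Il2rb, the shared chain of the interleukin 2 and 15 receptors, was above zero in 56.7%, against 24.6% of other CD8 T cells. It was above zero in 75.7% of NK-type and 74.1% of cycling effector cells. Il2ra was above zero in 3.37%, against 57.9% of Foxp3 T cells. Il18r1, the interleukin 18 receptor, was above zero in 16.3%, against 14.0% of other CD8 T cells and 15.5% of Krt18 cells.

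NK receptor genes varied in how the effector CD8 T cells compared with NK-type cells, which some of these genes had chosen. Klrc1 was above zero in 27.0% of the effector CD8 T cells and 26.2% of NK-type cells, and Klrd1 in 66.9% of the effector CD8 T cells and 72.9% of NK-type cells. Klra8 and Klra9, Ly49 receptors, were above zero in 0 of 178 cells (up to 2.05% within the interval), and Klrb1c, the NK1.1 antigen, in 1.12%. Klrk1, which encodes NKG2D and was not used to choose the NK-type cells, was above zero in 17.4%, against 77.6% of NK-type cells. Among interferon-induced genes, Gbp7 was above zero in 28.7% and Isg15 in 10.1%, against 33.8% and 23.7% of Krt18 cells, so they are not read as particular to these cells. Glycolytic Pgk1 was above zero in 62.9% and Ldha in 71.4%, against 28.1% and 63.2% of other CD8 T cells, and against 68.9% and 74.5% of Krt18 cells. Of the cell cycle genes outside the rule, Stmn1 was above zero in 31.5% and Pclaf in 20.2%, against 87.0% and 90.7% of the cycling effector cells. Ahr itself was above zero in 7.30% of the effector CD8 T cells, and its targets Cyp1b1 and Scin in 0 of 178.

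**Figure D2:**
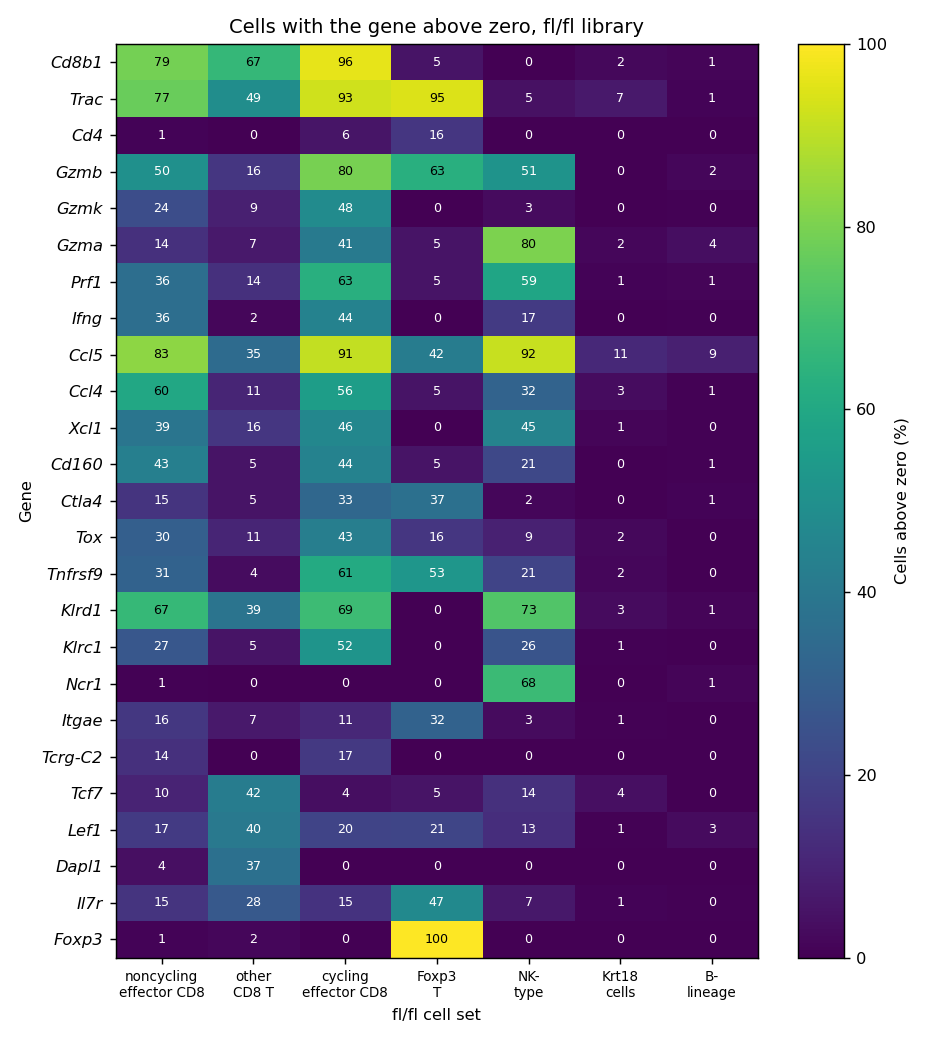
Share of cells with a gene above zero (percent, color and printed number) for 25 genes, one per line of the map, in 7 sets of fl/fl cells, with the noncycling effector CD8 T cells in the first column. Ifng stands at 36% there and 2% in other CD8 T cells, Gzmk at 24% and 3% in NK-type cells, Gzma at 14% and 80% in NK-type cells, and Tcf7 at 10% and 42% in other CD8 T cells.

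Some of the cells also held transcripts of the T cell receptor gamma locus, which serves gamma-delta T cells. In the fl/fl library, 42 of 178 cells (23.6%, 17.6 to 30.5%) had Tcrg-C1, Tcrg-C2 or Trgv2 above zero. All 42 had Trac, Trbc1 or Trbc2 above zero, and 35 had Cd8b1. The delta chain constant gene Trdc was above zero in 0 of the 178 fl/fl cells (up to 2.05% within the interval). Gamma transcripts were found in 14 of 54 cycling effector cells (25.9%, 14.96 to 39.7%), 0 of 57 other CD8 T cells (up to 6.27%), 0 of 107 NK-type cells (up to 3.39%) and 51 of 629 CD3-positive cells without Cd8a over 1 (8.11%, 6.10 to 10.5%). The gamma-positive effector cells had a median of 169.0 genes above zero, against 124.5 in the others, and the part of depth in this was not tested. Tcrg-C2 (chr13:19304649-19307551) and the variable segment Trgv2 (chr13:19336573-19337167) lie next to each other and were both above zero in 12 cells. Tcrg-C1 and Tcrg-C2 are close copies, so reads can be assigned to either, and both were above zero in 3 cells. In the cKO library, with the local zero level subtracted as described below, Trgv2 was over 1 in 38 cells (21.8%, 15.9 to 28.7%), against 19 fl/fl cells (10.7%, 6.55 to 16.2%). Tcrg-C2 was over 1 in 32 cKO cells (18.4%, 12.9 to 25.0%) and 25 fl/fl cells (14.0%, 9.30 to 20.03%), and Tcrg-C1 in 6 cKO cells (3.45%) and 14 fl/fl cells (7.87%). Trdc was over 1 in 6 cKO cells (3.45%, 1.28 to 7.35%) and 0 fl/fl cells (up to 2.05%). The intervals overlapped between the libraries for each of these genes. In mean values Tcrg-C2 was lower in cKO cells, by -0.33 deposited and -0.16 subtracted. Over Tcrg-C2 and Trgv2 the median difference in mean was -0.178 deposited and 0.02 subtracted, so no direction is read for the gamma genes.

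The cells were not uniform, and they are described by the number of the 4 effector genes over 1. In the cKO library 42, 40, 59 and 33 cells had 1, 2, 3 and 4 of these genes over 1, and in the fl/fl library 55, 51, 42 and 30 cells did. From 1 to 4 genes in fl/fl cells, Prf1 was above zero in 14.5, 35.3, 40.5 and 70.0% of cells, and Ifng in 10.9, 37.3, 50 and 60%. Gzmb was above zero in 34.5, 54.9, 54.8 and 63.3%, Tox in 14.5, 31.4, 28.6 and 60%, and Il2rb in 29.1, 52.9, 76.2 and 86.7%. Ccl5 reached 30 of 30 cells with all 4 genes. Genes of naive and stem-like cells ran the other way: Tcf7 was above zero in 25.5, 5.88, 2.38 and 0%, Lef1 in 32.7, 13.7, 7.14 and 6.67%, and Dapl1 in 10.9, 1.96, 0 and 0%. Il7r was above zero in 23.6, 15.7, 9.52 and 6.67% of these cells.

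Depth followed only part of this order, with medians of 108.0, 163.0, 162.5 and 155.0 genes above zero. It was lowest in cells with the fewest effector genes and did not rise after 163.0. The part of depth in the shares was not tested. Not every effector gene followed the order: Xcl1 was above zero in 29.1, 49.0, 45.2 and 30%, and Gzma in 10.9, 15.7, 16.7 and 13.3%. Itgae was above zero in 3.64, 17.6, 31.0 and 16.7%.

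In mean values, cells with 4 and with 1 of the effector genes were compared in both libraries. Of a chosen set of 39 genes, 26 had a higher mean in cells with 4 effector genes than with 1 in both libraries. For 6 the mean was lower in both, and the libraries differed in direction for 7. The same count over all genes was not made, so these counts have no background. The difference, 4 genes minus 1, was 1.92 in cKO and 1.45 in fl/fl cells for Ifng, and 1.42 in cKO and 1.90 in fl/fl cells for Tox. It was -0.88 in cKO and -0.67 in fl/fl cells for Tcf7, and -1.60 in cKO and -0.71 in fl/fl cells for Dapl1. Cd8b1 was among the 7 that differed, at -0.67 in cKO and 1.245 in fl/fl cells. The cKO means did not always keep the order in between: Gzmb had 0.577, 2.06, 2.51 and 2.44 from 1 to 4 genes, and Ifng 0.303, 2.11, 2.38 and 2.22. These are groups of cells of 1 library that genes of the same cells defined, so the order is a description.

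**Figure D3:**
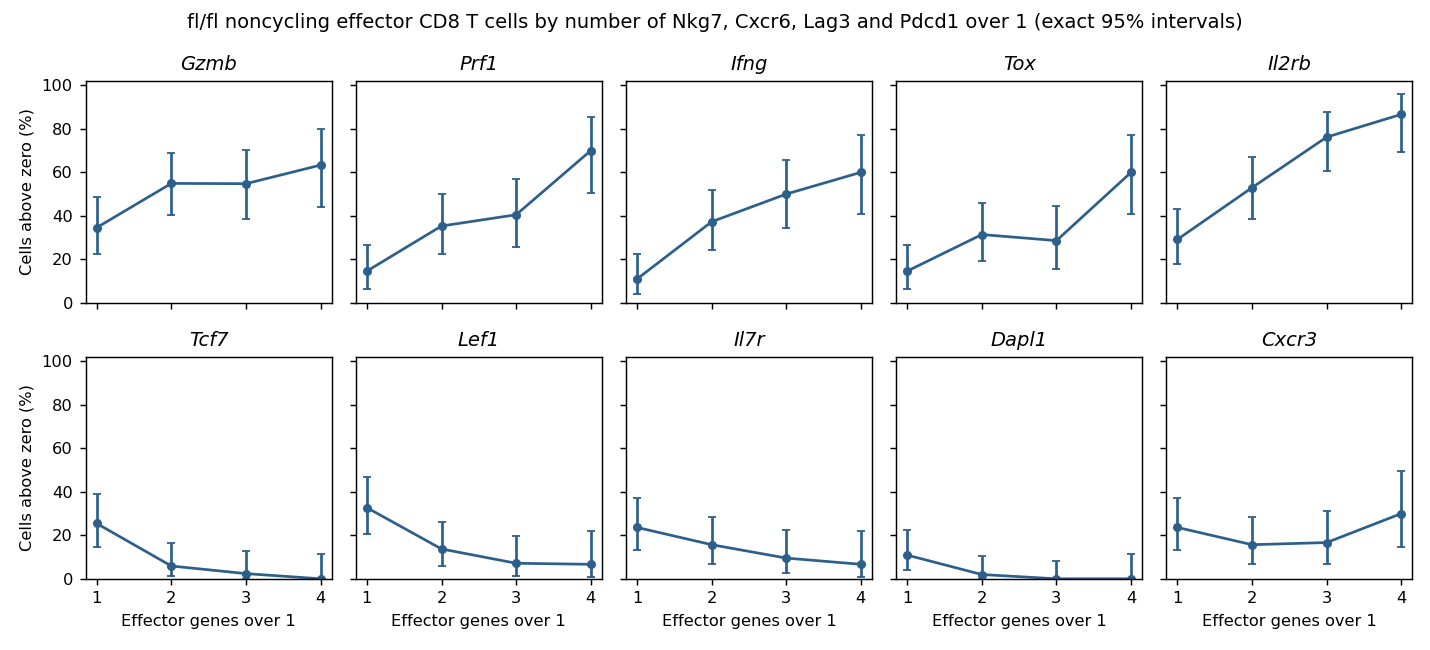
Share of fl/fl noncycling effector CD8 T cells with each of 10 genes above zero (percent, vertical axis) by how many of Nkg7, Cxcr6, Lag3 and Pdcd1 were over 1 (horizontal axis, 55, 51, 42 and 30 cells); points are shares and bars exact 95% intervals. Gzmb, Prf1, Ifng, Tox and Il2rb were highest at 4 genes, Tcf7, Lef1, Il7r and Dapl1 were highest at 1 gene, and Cxcr3 stood at 23.6, 15.7, 16.7 and 30%.

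Pairs of genes were also counted in the same fl/fl cells. Pdcd1 and Lag3 were both above zero in 59 cells (33.1%), where the product of their separate shares was 23.1%. Pdcd1 and Tox were both above zero in 21.3%, with a product of 14.1%, and Pdcd1 and Ifng in 24.7%, with a product of 16.8%. Gzma and Gzmk were both above zero in 7.30%, with a product of 3.31%, the highest ratio among the 55 pairs at 2.20. Tcf7 and Ifng were both above zero in 1 cell (0.562%), with a product of 3.64%, the lowest ratio at 0.155. Pdcd1, Lag3 and Cxcr6 are genes of the rule, so the choice of cells bears on their joint shares. Depth differs between cells, and its part in the joint shares was not tested. Counted together were the inhibitory receptor genes Pdcd1, Lag3, Ctla4, Cd160 and Klrc1, and Cd200, which encodes the ligand of an inhibitory receptor. None of them was over 1 in 37 cKO cells (21.3%) and 43 fl/fl cells (24.2%). At least 5 were over 1 in 2 cKO and 4 fl/fl cells.

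The cKO cells were then compared with the fl/fl cells gene by gene. The difference is the cKO mean minus the fl/fl mean, in scaled units. Of 434 genes that at least 10% of the fl/fl cells held above zero, 32 (7.37%) were higher in cKO cells by at least 0.2 and 19 (4.38%) were lower by at least 0.2. Because the cKO values may have been moved, an estimate with the local zero level subtracted stands beside each difference. For each cKO cell, the 0.3 quantile of the gene over its 30 nearest cKO cells was taken off. It was made only for genes that fewer than 40% of the fl/fl cells held above zero. Of 334 genes with such an estimate, 22 (6.59%) were higher by at least 0.2 and 10 (2.99%) lower, and 239 had the same sign in both. The median over all genes was -0.012 deposited and -0.002 subtracted. Only Il18r1, Tnfrsf18, Gzmk and Cd7 were at least 0.2 higher by both, and Gspt1 and Anp32e at least 0.2 lower by both. Of these, the deposited difference of Gzmk was -0.12 when the cKO cells were chosen on subtracted values, and Cd7 was 0.62 there. Anp32e came to -0.13 and Il18r1 to 0.54 among cells with at least 2 effector genes, where Gspt1 was -0.20.

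Il18r1, whose receptor lets interleukin 18 raise interferon gamma output, had a mean of 0.878 ± 1.90 in cKO cells and 0.533 ± 1.56 in fl/fl cells (SD over cells, as for all means below). The difference was 0.34 deposited and 0.41 subtracted, and it was over 1 in 27.0% of cKO cells (20.6 to 34.3%) after subtraction and in 14.6% of fl/fl cells (9.77 to 20.7%). Tnfrsf18, which encodes the costimulatory receptor GITR, had 0.903 ± 1.78 in cKO and 0.588 ± 1.18 in fl/fl cells, with differences of 0.31 and 0.33, and was over 1 in 32.8% of cKO cells (25.8 to 40.3%) after subtraction and in 20.2% of fl/fl cells (14.6 to 26.9%). Both receptors had intervals that overlapped between the libraries. Gzmk had 1.33 ± 2.83 in cKO and 0.994 ± 2.27 in fl/fl cells, with differences of 0.34 and 0.29, but was over 1 in a like share, 21.3% of cKO cells after subtraction and 22.5% of fl/fl cells. Cd7, an immunoglobulin-family receptor of T and NK cells, had 1.19 ± 2.19 in cKO and 0.855 ± 1.69 in fl/fl cells, with differences of 0.33 and 0.29. Gspt1, a translation termination factor, had 0.232 ± 0.602 in cKO and 0.603 ± 1.22 in fl/fl cells, with differences of -0.37 and -0.31. In each of the 6 genes the SD over cells exceeded the difference. Il18r1 lies at chr1:40465552-40500854 and Tnfrsf18 at chr4:156026164-156028895.

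Of 9 cytotoxic genes past the filter, 5 were higher by at least 0.2 in the deposited values and none lower, with a median of 0.232. They were Nkg7, whose difference of 0.52 the choice of cells bears on, Prf1 (0.47), Gzmb (0.43), Gzmk (0.34) and Cst7 (0.23). After subtraction 2 of 6 were higher, Gzmk and Serpinb6b, an inhibitor of granule proteases, at 0.27 (0.01 deposited), and the median was 0.132. Prf1 had 1.23 ± 1.95 in cKO and 0.757 ± 1.45 in fl/fl cells and came to 0.12 after subtraction, and Cst7, a cystatin that restrains granzyme processing, came to -0.04. Of 6 cytokine and chemokine genes, 3 were higher in the deposited values, Ccl5 (0.71), Ifng (0.48) and Ccl3 (0.31), with a median of 0.233. Ccl5 had 2.44 ± 2.30 in cKO and 1.73 ± 2.23 in fl/fl cells, the highest deposited difference of the 434 genes, and had no estimate because it was too common. Ifng had 1.79 ± 2.45 in cKO and 1.31 ± 2.42 in fl/fl cells, but its difference was -0.18 after subtraction, with 29.9% of cKO cells (23.2 to 37.3%) and 33.1% of fl/fl cells (26.3 to 40.6%) over 1. The 3 genes of this list with an estimate, Ifng, Xcl1 and Ccl1, were all below 0 at -0.18, -0.19 and -0.15. No direction is read for Ifng.

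Of 5 inhibitory receptor genes, Lag3 (0.66, a gene of the rule) and Klrc1 (0.34) were higher in the deposited values and Cd160 (-0.36) lower, with a median of 0.135. Pdcd1 had 1.76 ± 2.52 in cKO and 1.65 ± 2.48 in fl/fl cells, a difference of 0.11. Ctla4 had 0.601 ± 1.96 in cKO and 0.466 ± 1.51 in fl/fl cells, with differences of 0.13 deposited and 0.41 subtracted, and was over 1 in 19.5% of cKO cells (13.9 to 26.2%) after subtraction and 13.5% of fl/fl cells (8.83 to 19.4%). Of 6 costimulatory genes, Tnfrsf18 and Cd226 (0.30) were higher in the deposited values, with a median of 0.167. Cd226 came to 0.19 without the cells that held genes of another lineage. After subtraction Tnfrsf18 and Icos, at 0.34, were higher among 5, with a median of 0.105. Ctla4, Icos and Cd28, related receptors of the CD28 family, lie in a row on chromosome 1 (Cd28 chr1:60716800-60773359, Ctla4 chr1:60887000-60915832, Icos chr1:60977927-61000320). Cd28 had differences of 0.19 deposited and 0.03 subtracted.

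Of 10 transcription factor genes, only Nr4a2 (0.42) passed 0.2 in the deposited values, and it came to -0.02 after subtraction. Rora, which encodes an orphan nuclear receptor, came to 0.33 after subtraction and 0.16 deposited. Tox had 1.14 ± 1.73 in cKO and 1.27 ± 2.43 in fl/fl cells, with differences of -0.12 deposited and -0.50 subtracted, the lowest estimate of all 334 genes. Its shares over 1 were 25.3% of cKO cells (19.0 to 32.4%) after subtraction and 29.2% of fl/fl cells (22.7 to 36.5%), and these intervals overlapped. Lef1 had differences of -0.08 deposited and -0.27 subtracted, and Tcf7 of 0.00 and -0.11. Of the 6 naive and memory genes past the filter, none passed 0.2 in the deposited values and Lef1 alone passed -0.2 after subtraction.

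Of 6 homing genes, Cxcr6 (0.49, a gene of the rule) and Itgb1 (0.24, and 0.198 without the cells that held genes of another lineage) were higher in the deposited values and Itgae was lower. Itgae had 0.280 ± 2.38 in cKO and 0.861 ± 2.26 in fl/fl cells, the lowest deposited difference at -0.58. It came to 0.11 after subtraction, with 23.6% of cKO cells and 16.3% of fl/fl cells over 1, so no direction is read for it. Cxcr3 had differences of 0.03 and 0.22 and was over 1 in 28.2% of cKO cells (21.6 to 35.5%) after subtraction and 19.7% of fl/fl cells (14.1 to 26.3%). Of 6 NK receptor genes, Klrc1, Cd7 and Klrd1 (0.28) were higher in the deposited values, and Cd7 alone was among 5 after subtraction. Of 13 receptor complex genes, Cd8b1 (0.56), Cd6 (0.39), Cd3e (0.31, a gene of the rule) and Trac (0.20) were higher and Trbc1 (-0.43) and Lat (-0.31) lower. Without the cells that held genes of another lineage, Cd3e came to 0.18 and Trac to 0.06. Cd6 came to -0.24 after subtraction, and Cd5, its relative and a brake on receptor signaling, to -0.20. Trbc1 and Trbc2 are close copies, and Trbc2 differed by 0.00.

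Cell cycle genes had a median difference of -0.091 deposited, with 0 of 21 past 0.2 in either direction, and -0.078 subtracted, with 1 of 18 lower. That gene was Stmn1, at 0.325 ± 0.987 in cKO and 0.471 ± 0.920 in fl/fl cells, with differences of -0.15 deposited and -0.20 subtracted. It was over 1 in 7.47% of cKO cells (4.04 to 12.4%) after subtraction and 18.5% of fl/fl cells (13.1 to 25.0%). It was the only gene of 219 with such shares whose intervals did not overlap, and was singled out after its values were seen. Stmn1 came to -0.05 when the local zero level was subtracted in both libraries. Dtl, a ubiquitin ligase adaptor of S phase, had differences of -0.16 and -0.26 and was over 1 in 4.598% of cKO cells (2.01 to 8.86%) and 11.8% of fl/fl cells (7.45 to 17.5%). Cells with 2 or more of the rule's cycling genes had been left out of both groups.

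The remaining lists follow. Of 7 interferon-induced genes, Ly6a (0.26) was higher in the deposited values and none passed 0.2 after subtraction. Of 8 immediate early and stress genes Rgs1 (0.29) was higher, and of 9 hypoxia and glycolysis genes none passed 0.2 by either reading. Of 7 regulatory T cell genes Tnfrsf18 was higher and Itgae lower in the deposited values, and Tnfrsf18 and Ctla4 were higher after subtraction. Of 3 cytokine receptor genes Il18r1 was higher, while Il2rb differed by 0.09 and Il7r by 0.12. Of the gamma-delta genes, Tcrg-C2 (-0.33) was lower in the deposited values and at -0.16 after subtraction. Ahr had 0.193 ± 0.685 in cKO and 0.111 ± 0.536 in fl/fl cells, with differences of 0.08 and 0.12, and was over 1 in 10.3% of cKO cells (6.25 to 15.9%) after subtraction and 5.62% of fl/fl cells (2.73 to 10.1%). Cells in which LysM-Cre acts were not analysed here, so the deletion was not checked. Lyz2 had 0.006 ± 0.047 in cKO and 0.044 ± 0.169 in fl/fl cells.

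**Figure D4:**
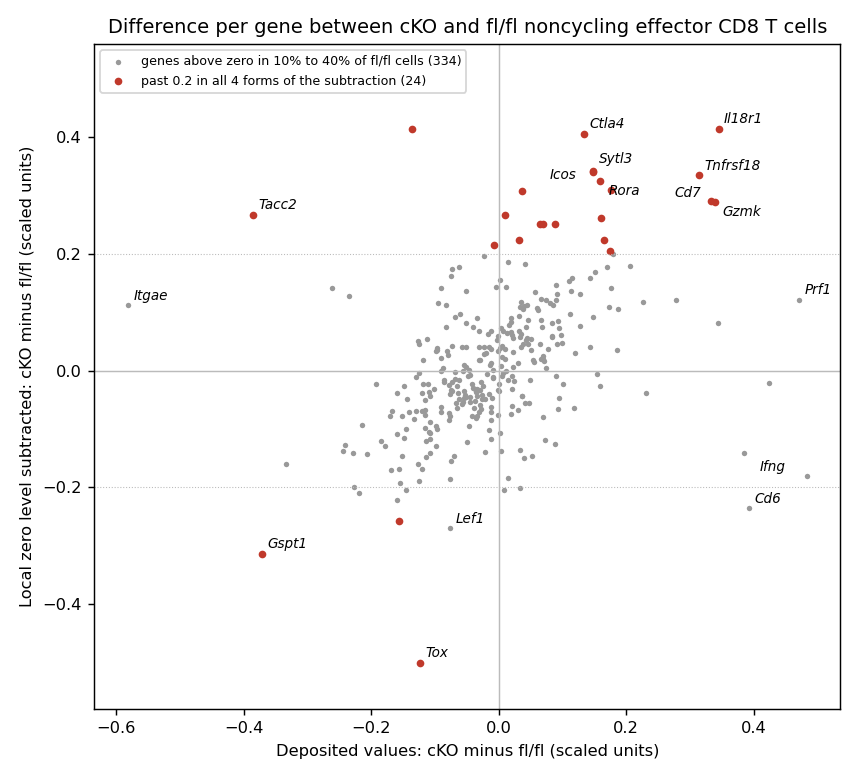
Difference in mean, cKO minus fl/fl, per gene in noncycling effector CD8 T cells (scaled units), from the deposited values (horizontal) and with the local zero level subtracted (vertical), for 334 genes; red points are the 24 genes past 0.2 in all 4 forms of the subtraction. Il18r1, Tnfrsf18, Cd7 and Gzmk stand high on both axes and Gspt1 low on both, while Ifng, Cd6, Itgae and Tacc2 change sign between the axes.

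The estimate was made in 4 forms (30 or 50 neighbours, a quantile of 0.3 or 0.2, and subtraction in both libraries). Of the 334 genes, 21 were higher in cKO cells by at least 0.2 in all 4 forms and 3 lower. The form used above alone gave 22 and 10. A quantile of 0.2 takes off no more than one of 0.3, so by construction it cannot undo a higher difference and can only end lower ones. For 18 of the 21 and all 3 the deposited difference had the same sign. Of the 18, only Il18r1, Tnfrsf18, Gzmk and Cd7 were at least 0.2 higher in the deposited values. Others were near 0 there, such as Serpinb6b (0.01) and Cxcr3 (0.03). Receptors among the 18 were Il18r1 (0.41 to 0.49), Ctla4 (0.41 to 0.50), Icos (0.34 to 0.44), Tnfrsf18 (0.33 to 0.42), Cd7 (0.29 to 0.42), Crtam (0.25 to 0.33), Jaml (0.26 to 0.33) and Cxcr3 (0.22 to 0.39). Granule genes among them were Gzmk (0.29 to 0.37), Serpinb6b (0.27 to 0.34) and Sytl3, a synaptotagmin-like protein (0.34 to 0.47). The 3 lower genes were Tox (-0.50 to -0.37), Gspt1 (-0.31 to -0.26) and Dtl (-0.26 to -0.24). Serpinb6b was over 1 in 20.1% of cKO cells (14.4 to 26.8%) after subtraction and 11.8% of fl/fl cells (7.45 to 17.5%), and Sytl3 in 21.8% (15.9 to 28.7%) of cKO and 12.4% (7.91 to 18.1%) of fl/fl cells. These intervals overlapped. The forms share the same cells and are not separate evidence.

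**Figure D5:**
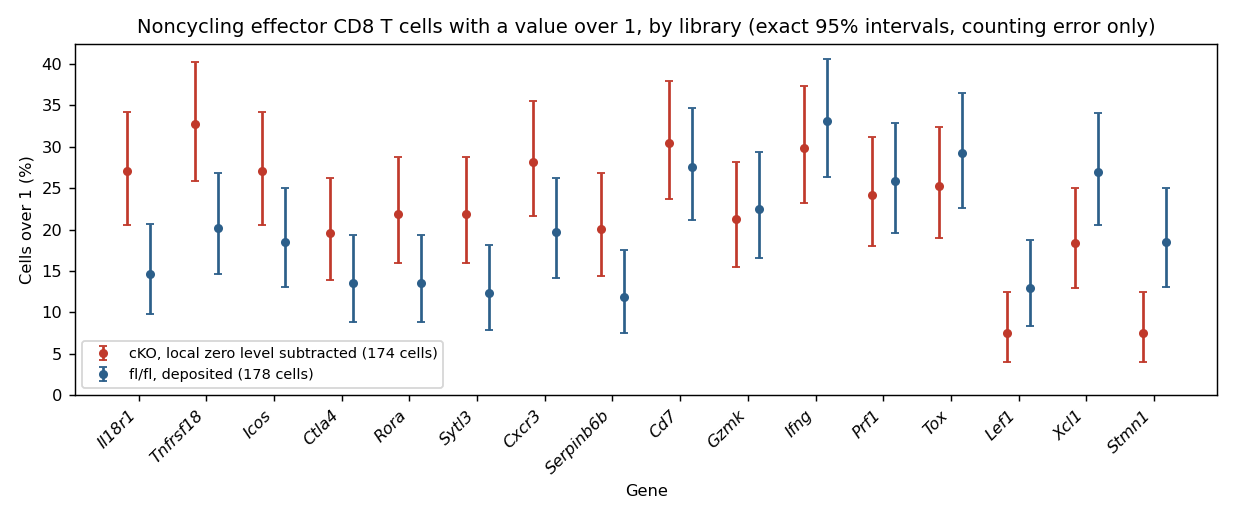
Share of noncycling effector CD8 T cells with a value over 1 (percent) for 16 genes, with cKO cells (174, local zero level subtracted) on the left of each pair in red and fl/fl cells (178, deposited) on the right in blue; bars are exact 95% intervals for counting error. Il18r1 stands at 27.0% in cKO and 14.6% in fl/fl cells, Tnfrsf18 at 32.8% and 20.2%, and Stmn1 at 7.47% and 18.5%, while Gzmk, Ifng, Prf1 and Tox overlap widely.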

How the data were processed

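The 2 libraries, 1 per genotype and each from pooled tumors of 3 mice, were made by 10X Genomics capture of live cells, per the labels' protocols. The authors deposited a scaled score for each gene in each cell and, as another score, UMAP coordinates. Per the submitters' processing notes, which give no role or order, Cell Ranger 3.0.0, Seurat 3.1.4, mm10 and GRCm38 were used. A correction of the cKO values was inferred from them. All columns could be assigned to a library, by the end of the cell name.

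Python 3.11.15 with numpy 2.4.6, pandas 2.3.3, scipy 1.17.1 and matplotlib 3.10.9 was used. Above zero means more than 0.001 over the fl/fl minimum. Other CD8 T cells lacked the 4 effector genes over 1, cycling cells had at least 2 cycling genes over 1, Foxp3 T cells were CD3-positive with Foxp3 and without Cd8a over 1, and NK-type cells had at least 2 of 8 NK genes over 1 and no CD3 gene or Cd8a over 1. Nearest cells for the subtraction were taken in 30 principal components. The subtraction was also run on simulated data, an fl/fl library split and integrated with Seurat 5.3.0, and the outcome is not reported here. Known differences in genes, a loss of Krt18 cells and a factor per gene were added to 1 part. Both parts came from 1 library, so other technical differences between libraries are not held. No test was made, with 1 library per genotype.

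Named genes were those of the rule, members of 17 T cell gene lists when a list is described, the leading genes against other fl/fl cells, the 10 highest and 10 lowest differences by both readings, Ahr and Lyz2. Genes past 0.2 in all 4 forms, Stmn1 and Dtl among the shares and the gamma locus genes were singled out after their values were seen. The cells, the lists and the subtraction were chosen with earlier results of these data known. Alternatives changed the thresholds, the filters, the cells kept and the form of the subtraction.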

Additional observations from a re-analysis of the deposited data

Results flagged for a closer look

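Hsph1, a heat shock protein, had estimates in opposite directions in the effector CD8 T cells and NK-type cells. It was the only gene past 0.2 in opposite directions, in a scan over genes with an estimate in both cell sets. With the local zero level subtracted, its difference, cKO minus fl/fl, was 0.250 in the effector CD8 T cells and -0.276 in the NK-type cells. In the effector CD8 T cells the deposited difference was 0.06. The difference between the cell types was not tested.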

How the results depend on the processing

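No paired analysis was possible because each genotype has 1 library. The share of effector CD8 T cells in the cKO library was 4.96% with a threshold of 0.5, 3.02% with 1.5, 2.88% with at least 2 effector genes and 1.62% (74 cells) with the choice made on subtracted values, which by construction take off the level of neighbours that hold the same genes. In the fl/fl library it was 4.18% with 0.5, 2.79% with 1.5, 2.37% with at least 2 effector genes, 2.87% with at least 2 CD3 genes and 2.91% with no cycling gene. As a share of all cells it stayed higher in the cKO library under each threshold, on cKO values that may have been moved. Of CD3-positive cells it was lower in the cKO library at the threshold of 1, at 18.6% against 19.2%. The intervals overlapped for both denominators at that threshold, so no direction is read. The choice on subtracted values changed the cKO cells only, so that share is not set against the fl/fl share. Genes lower in the deposited values numbered 35 of 2000 with no filter, 29 with a threshold of 1.5, 38 with cells chosen on subtracted values and 10 after subtraction. After subtraction, genes higher numbered 47 of 1900 with no filter and 42 with a quantile of 0.2, and genes lower 18 with a threshold of 1.5, 24 with cells chosen on subtracted values and 4 with a quantile of 0.2.

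List medians after subtraction were -0.182 for cytokines and chemokines (reversed), -0.218 for the receptor complex, 0.244 for inhibitory receptors, -0.08 for transcription factors, 0.082 for NK receptors, 0.287 for cytokine receptors and 0.017 for gamma-delta genes. Single genes that reversed with the local zero level subtracted were Cd6 (-0.236, -0.215 with 50 neighbours, -0.143 with a quantile of 0.2), Ifng (-0.182, -0.13, -0.038, and -0.1 with subtraction in both libraries), Cst7 (-0.039), Nr4a2 (-0.021), F2r (0.141, 0.159, 0.235), Itgae (0.112, 0.119, 0.476) and Tacc2 (0.267, 0.29, 0.443). With cells chosen on subtracted values, Ccl3 (-0.029), Cst7 (-0.108), Gzmk (-0.12), Ifng (-0.043) and Klrd1 (-0.007) reversed. The cause was not tested. Leaving out cells with another lineage reversed 0 of 129 genes but took Cd226 (0.192), Cd3e (0.184), Itgb1 (0.198) and Trac (0.057) below 0.2, and leaving out shared barcodes reversed 0. Subtraction in both libraries and leaving out shared barcodes were chosen after seeing the data.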
